A study of Mus musculus with 4 samples.

Results

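Cone bipolar cells are retinal interneurons that come in many subtypes, and the 10 genes described here, Htr3a, Htr3b, Chrm2, Erbb4, Prkar2b, Cpne9, Serpini1, Vwc2, Sox6 and Zfhx4, are used to tell ON or OFF subtypes apart. They were taken by name, and all 10 were found among the 22558 gene symbols measured. Whole mouse retinas of Fezf2 knockout (KO) animals and control littermates were profiled by RNA sequencing to ask what the transcription factor Fezf2 does in retinal development. The 4 groups were KO at postnatal day 14 (P14), control at P14, KO at postnatal day 7 (P7) and control at P7, all on the background that the labels give as C57/BL/6J, with 1 library each. The labels call the controls wildtype littermates. The KO allele and the number of animals in a library were not given in the sources used here.

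Bipolar cells carry signals from photoreceptors to amacrine and ganglion cells. ON subtypes respond to light onset through the metabotropic glutamate receptor Grm6 and the channel Trpm1, and OFF subtypes respond to light offset through ionotropic glutamate receptors. Subtypes are born around birth and in the first postnatal days in the mouse, and their synapses mature up to eye opening. Several of the 10 genes are also active in amacrine, ganglion or other retinal cells, so a level in whole retina is not a level in bipolar cells, and fewer cells of a type cannot be told apart from less RNA per cell.

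Levels are in FPKM, the number of sequenced fragments scaled by transcript length and by library size, and each comes with a lower and an upper bound deposited by the authors. A pair of libraries is said to have separate bounds for a gene where the whole range of one lay above that of the other. The bounds describe error inside 1 library, not the spread between mice, which cannot be estimated here. Log2 differences were taken after adding 1 FPKM to each level, which understates changes of low genes. Fezf2 itself was at 0.126 FPKM in KO retina, against 4.02 FPKM in control retina at P14, and at 0.592 FPKM in KO retina, against 8.32 FPKM in control retina at P7. The ON bipolar cell genes Trpm1 and Grm6 were present in every library, at 8.73 FPKM or more. Both were lower in the KO library with separate bounds at either age. At P14 Trpm1 was at 32.8 FPKM in KO retina, against 38.7 FPKM in control retina, and Grm6 at 23.4 FPKM, against 28.2 FPKM. At P7 Trpm1 was at 8.73 FPKM in KO retina, against 10.2 FPKM in control retina, and Grm6 at 16.4 FPKM, against 19.9 FPKM. Markers of neighbouring tissue differed between the libraries at P14. The summed level of 6 lens, vitreous and ciliary body genes was 6.97 FPKM in the KO library, against 59.5 FPKM in the control one, that of 7 pigment epithelium genes was 105 FPKM in the KO library, against 152 FPKM in the control one, and that of 5 blood genes was 356 FPKM in the KO library, against 1180 FPKM in the control one. At P7 these lens and vitreous genes summed to 32.0 FPKM in the KO library, against 10.5 FPKM in the control one.

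The members spanned a wide range of levels. Serpini1, which encodes the serine protease inhibitor neuroserpin, was the highest in all 4 libraries, and Prkar2b, a regulatory subunit of protein kinase A, was next, although their bounds overlapped in the control retina at P7. In the control retina at P14 the order then ran through Cpne9, Vwc2, Chrm2, Htr3a, Zfhx4 and Sox6 to Erbb4, with Htr3b last. Neighbours whose bounds overlapped in that library were Cpne9 and Vwc2, Vwc2 and Chrm2, Htr3a and Zfhx4, and Zfhx4 and Sox6. In the KO retina at P14 the order was the same, but the bounds of only 1 pair of neighbours, Chrm2 and Htr3a, overlapped. At P7 Zfhx4 ranked directly below Prkar2b in both genotypes, and Htr3a ranked below Erbb4, each with separate bounds. Other P7 neighbours with overlapping bounds were Sox6 and Vwc2, Vwc2 and Chrm2, and Chrm2 and Erbb4 in the KO retina, and Cpne9 and Sox6, Chrm2 and Vwc2, and Vwc2 and Erbb4 in the control retina. All these orders are of length-scaled levels within a library.

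**Figure D1:**
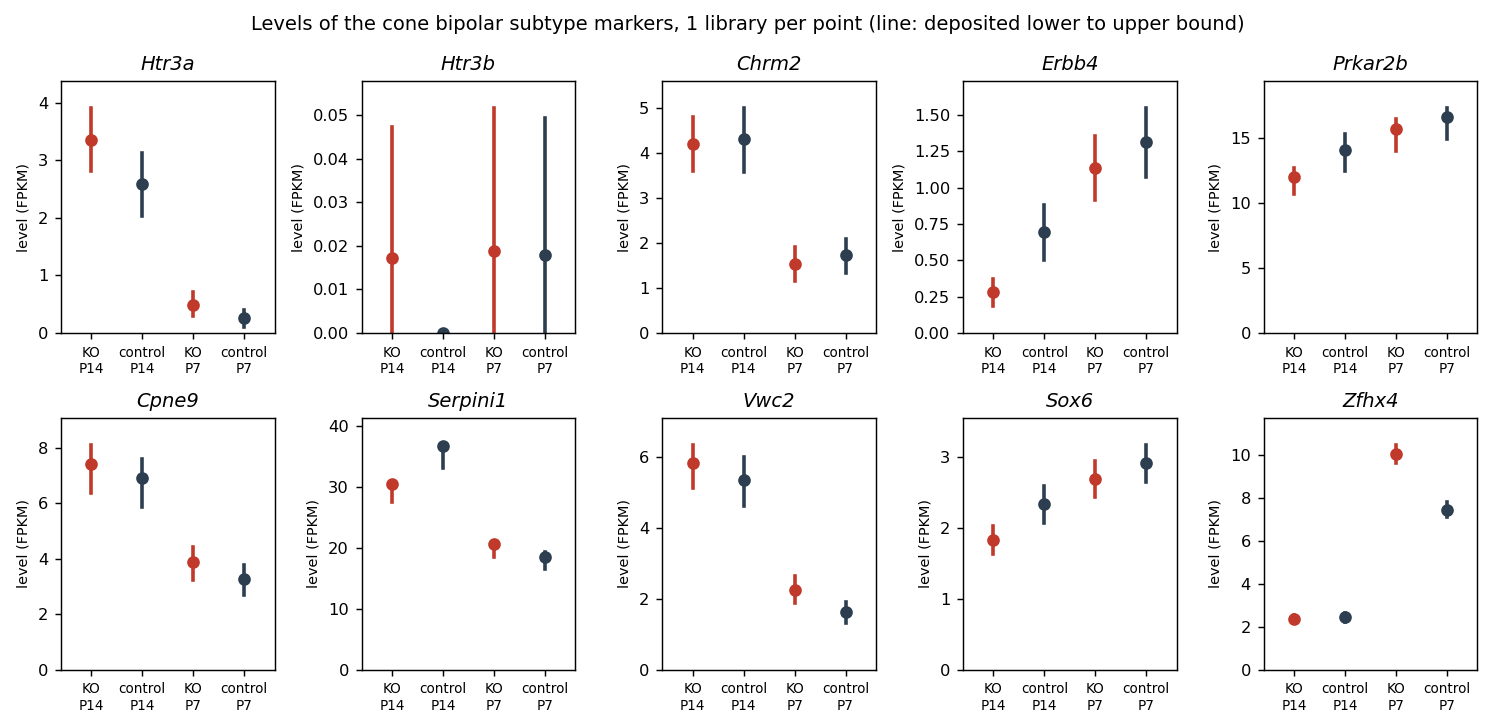
Levels of the 10 genes in FPKM (vertical axis, from 0, a separate scale for each gene) in the KO P14, control P14, KO P7 and control P7 libraries. Each point is 1 library and each line runs from the deposited lower to the upper bound. Htr3a, Chrm2, Cpne9, Serpini1 and Vwc2 stand higher at P14 than at P7 in either genotype, and Zfhx4 and Erbb4 stand lower.

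Between P7 and P14 most of the members differed, in both directions and in the same direction in each genotype. The bounds were separate between the ages for 9 of 10 members in the KO retina, 5 of them higher and 4 lower at P14, against 67.7% of the 13191 genes at 1 FPKM or more in either library (28.7% higher and 38.9% lower). In the control retina they were separate for 8 of 10, 5 higher and 3 lower, against 64.6% of 13276 genes (27.3% higher and 37.3% lower). The 10 include Htr3b, below 1 FPKM in every library. Of the 9 members at 1 FPKM or more, bounds were separate for 9 in the KO and 8 in the control retina. The median log2 difference of the 10 members was 0.27 in KO retina, against 0.43 in control retina, beside -0.09 in the KO and -0.09 in the control retina for all genes at that level. For the 9 members at that level it was 0.54 in KO retina, against 0.89 in control retina. Most genes of the retina thus differed with age, whether members or not. A limma fit of genotype and age over the 4 libraries covered 9 members, all but Htr3b, and for the age term 5 rose and 4 fell at a Benjamini-Hochberg adjusted p below 0.05, where 71.4% of 12933 genes did (30.7% rose and 40.6% fell). That fit has 1 residual degree of freedom and borrows its estimate of the spread from other genes. Its standard errors (SE) and p-values, here and below, therefore do not measure the spread between mice of a group.

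Among the receptors, Htr3a, the subunit that can form a serotonin-gated cation channel on its own, had the largest rise. It was at 3.36 FPKM at P14 and 0.490 FPKM at P7 in the KO retina, and at 2.58 FPKM at P14 and 0.255 FPKM at P7 in the control retina. The P14 levels lay above the P7 levels in each genotype with separate bounds, and the log2 change in the limma fit was 1.53 ± 0.11 (SE, adjusted p = 1.82e-07). The P7 levels rested on few fragments, about 21.4 in the KO library, against 11.8 in the control one, as implied by the widths of the bounds. With 0.1 FPKM added in place of 1 FPKM the difference between the ages was 2.55 in KO retina, against 2.92 in control retina.

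Htr3b, which joins Htr3a in channels of mixed composition, was at the edge of detection throughout. It was listed at 0.0172 FPKM in the KO and at 0 in the control retina at P14, and at 0.0188 FPKM in KO retina, against 0.0180 FPKM in control retina at P7. The bounds implied about 1.31 fragments in each library with a level above 0, so no difference was detectable at this depth, and the upper bound was at most 0.0516 FPKM. The genes are neighbours on chromosome 9 of the mm9 build, Htr3a from 48707318 to 48719204 and Htr3b from 48743113 to 48773095. They lie 23.9 kb apart with 0 annotated genes between them.

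Chrm2, the M2 muscarinic acetylcholine receptor, was at 4.20 FPKM at P14 and 1.54 FPKM at P7 in the KO retina, and at 4.30 FPKM at P14 and 1.72 FPKM at P7 in the control retina. Its levels at either age were nearly the same in both genotypes, and it rose with age by 0.997 ± 0.11 (log2, SE; limma adjusted p = 6.05e-06). Erbb4, the neuregulin receptor tyrosine kinase used to mark an OFF subtype, went the other way. It was at 0.280 FPKM at P14 and 1.14 FPKM at P7 in the KO retina, and at 0.694 FPKM at P14 and 1.31 FPKM at P7 in the control retina. Both P14 levels were below both P7 levels, and the fitted change was -0.59 ± 0.12 (adjusted p = 0.000830 by limma). With 0.1 FPKM added the difference was -1.70 in KO retina, against -0.83 in control retina.

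Of the intracellular signalling proteins, Cpne9, a copine (a calcium-dependent membrane-binding protein), was at 7.41 FPKM at P14 and 3.89 FPKM at P7 in the KO retina, and at 6.93 FPKM at P14 and 3.26 FPKM at P7 in the control retina. It rose by 0.84 ± 0.11 (log2, SE; limma adjusted p = 1.90e-05). Prkar2b was at 12.04 FPKM at P14 and 15.7 FPKM at P7 in the KO retina, and at 14.1 FPKM at P14 and 16.6 FPKM at P7 in the control retina. The ages had separate bounds in the KO retina but overlapping bounds in the control retina, and the fitted fall of -0.29 ± 0.09 (limma adjusted p = 0.0139) no longer passed when libraries were scaled by the median ratio of genes (adjusted p = 0.0953 with limma).

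The genes of both secreted proteins rose. Serpini1 lies on chromosome 3 of mm9 from 75361455 to 75446445, and Vwc2 on chromosome 11 from 11014019 to 11163529. Serpini1 was at 30.5 FPKM at P14 and 20.6 FPKM at P7 in the KO retina, and at 36.7 FPKM at P14 and 18.5 FPKM at P7 in the control retina, a fitted rise of 0.75 ± 0.10 (log2, SE; limma adjusted p = 3.07e-05). Vwc2, which encodes a secreted antagonist of bone morphogenetic proteins (BMPs), was at 5.84 FPKM at P14 and 2.26 FPKM at P7 in the KO retina, and at 5.35 FPKM at P14 and 1.62 FPKM at P7 in the control retina. Its rise was 1.17 ± 0.11 (limma adjusted p = 1.79e-06), the largest among the members after Htr3a.

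The transcription factor genes fell. Zfhx4, which encodes a large zinc-finger homeodomain protein and lies on chromosome 3 of mm9 from 5218554 to 5415855, was at 2.38 FPKM at P14 and 10.1 FPKM at P7 in the KO retina, and at 2.44 FPKM at P14 and 7.45 FPKM at P7 in the control retina. The P14 levels were almost equal, and the fitted change was -1.50 ± 0.12 (log2, SE; limma adjusted p = 3.92e-07). Sox6, a SoxD transcription factor used to mark an ON subtype, lies on chromosome 7 from 122614858 to 123182258. It was at 1.83 FPKM at P14 and 2.70 FPKM at P7 in the KO retina, and at 2.34 FPKM at P14 and 2.92 FPKM at P7 in the control retina. Its fitted fall of -0.31 ± 0.11 (limma adjusted p = 0.0280) did not pass under median ratio scaling (adjusted p = 0.0944 with limma) or with all genes kept (adjusted p = 0.0880).

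**Figure D2:**
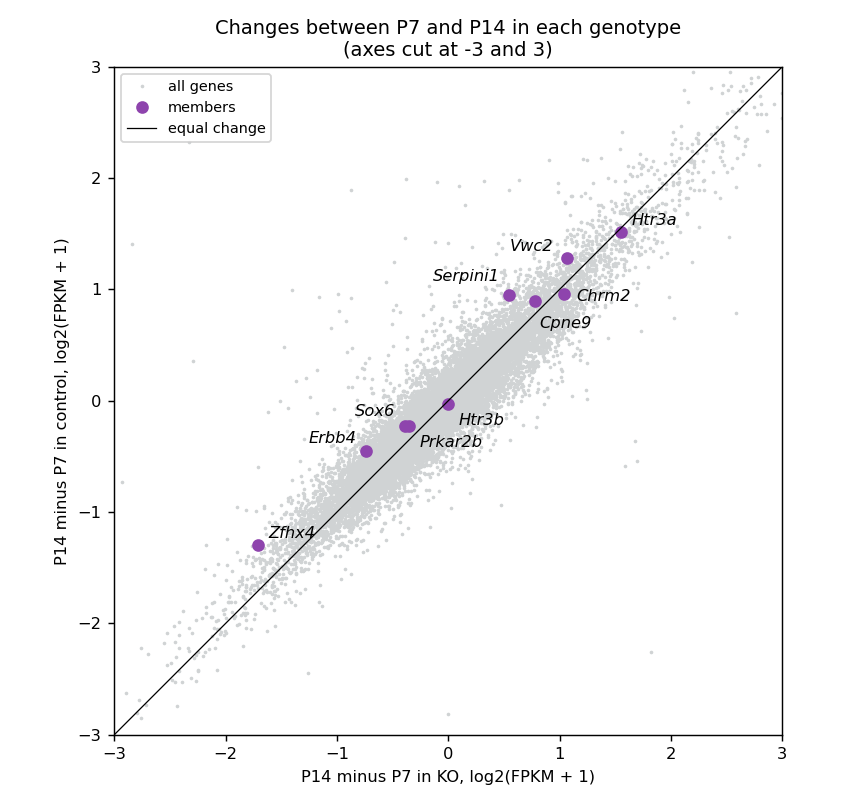
Change between P7 and P14, as the difference of log2(FPKM + 1), in the KO retina (horizontal axis) and in the control retina (vertical axis). Purple points are the 10 members, grey points are 13245 genes at 1 FPKM or more in any library, and the line marks equal change; points beyond 3 in either direction are not drawn. Htr3a, Vwc2, Chrm2, Cpne9 and Serpini1 lie in the upper right, Zfhx4 and Erbb4 in the lower left, and Htr3b near 0.

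For 4 of the 5 members that rose with age a promoter sequence was at hand, and the 250 bases before the annotated start are shown because these genes moved the same way. The sequences are from RefSeq on the GRCm38.p6 build, a later build than that of the deposited levels, each read 5′ to 3′ on the strand of the gene. Capitals mark TAATCC, the core recognised by OTX and CRX homeodomain proteins, and CATCTG, an E-box that basic helix-loop-helix proteins can bind, each searched on both strands.
Chrm2, chr6:36387834-36388083, plus strand: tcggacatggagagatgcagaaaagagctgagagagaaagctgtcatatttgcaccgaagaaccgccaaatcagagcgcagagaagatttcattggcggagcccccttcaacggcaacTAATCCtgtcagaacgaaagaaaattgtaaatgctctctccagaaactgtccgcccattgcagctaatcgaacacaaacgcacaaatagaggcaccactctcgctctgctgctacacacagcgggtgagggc
Serpini1, chr3:75557243-75557492, plus strand: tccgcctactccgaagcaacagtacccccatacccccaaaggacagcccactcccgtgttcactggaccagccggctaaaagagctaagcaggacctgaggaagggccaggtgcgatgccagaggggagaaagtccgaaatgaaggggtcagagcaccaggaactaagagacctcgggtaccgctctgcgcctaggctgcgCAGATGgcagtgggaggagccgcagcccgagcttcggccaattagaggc
Vwc2, chr11:11113766-11114015, plus strand: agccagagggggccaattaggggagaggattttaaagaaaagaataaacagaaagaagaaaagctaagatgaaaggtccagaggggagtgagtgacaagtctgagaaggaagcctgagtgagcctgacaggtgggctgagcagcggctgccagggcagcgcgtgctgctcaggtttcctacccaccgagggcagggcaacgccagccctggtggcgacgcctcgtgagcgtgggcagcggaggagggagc
Cpne9, chr6:113282057-113282306, plus strand: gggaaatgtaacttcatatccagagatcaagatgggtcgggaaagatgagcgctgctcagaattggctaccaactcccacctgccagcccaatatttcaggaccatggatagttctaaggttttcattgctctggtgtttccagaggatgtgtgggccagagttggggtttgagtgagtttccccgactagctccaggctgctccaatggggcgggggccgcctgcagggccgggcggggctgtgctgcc

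TAATCC stood 132 bases before the start of Chrm2, and a CATCTG on the opposite strand (read as CAGATG) stood 49 bases before the start of Serpini1, while Vwc2 and Cpne9 held neither. In all, 8 of the 10 members had 14 promoter entries, 6 of them for Sox6 and 2 for Prkar2b, and Htr3a and Zfhx4 had no entry. TAATCC was in 2 of the 14 and CATCTG in 3, against 6.25% and 14.4% of all 32851 promoter windows of that length. Apart from those of Chrm2 and Serpini1, all windows with either motif were alternative starts of Sox6, so the entries do not stand for separate genes. These letters are descriptions of the windows, and the files hold no binding data.

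At P14 the KO and control retinas differed with separate bounds at 3 of 10 members, all lower in the KO retina, against 12.1% of all genes above 0 FPKM in either direction and 6.39% lower. Erbb4 was at 0.280 FPKM (bounds 0.187 to 0.374) in KO retina, against 0.694 FPKM (bounds 0.505 to 0.878) in control retina, or 40.4% of control (log2 difference -0.40, or -1.06 with 0.1 FPKM added in place of 1 FPKM and -0.69 on a TPM scale). Both levels were under 1 FPKM and rested on about 36.0 fragments in the KO library, against 55.5 in the control one. Serpini1 was at 30.5 FPKM (27.5 to 30.6) in KO retina, against 36.7 FPKM (33.1 to 36.9) in control retina, 83.0% of control (-0.26). Sox6 was at 1.83 FPKM (1.63 to 2.03) in KO retina, against 2.34 FPKM (2.08 to 2.60) in control retina, 78.2% (-0.24). The KO level was thus below the control level for all 3, with the widest gap in proportion at Erbb4.

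Of the members at 1 FPKM or more in either P14 library, 2 of 8 were lower and 0 higher with separate bounds, against 15.6% of 12954 genes, 7.38% higher and 8.18% lower. The differences of the other members at P14 were within their bounds. Htr3a was at 3.36 FPKM in KO retina, against 2.58 FPKM in control retina (0.28), and Prkar2b at 12.04 FPKM in KO retina, against 14.1 FPKM in control retina (-0.21). Vwc2 (0.11), Cpne9 (0.08), Zfhx4 (-0.02) and Chrm2 (-0.03) were closer still. The median of all 10 was -0.03, and that of the 8 at 1 FPKM or more was -0.03, beside 0.00 for all genes at 1 FPKM or more.

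Several markers of other OFF cone bipolar cells were lower in the same KO library. Over all genes at 1 FPKM or more at P14, 7.38% were higher and 8.18% lower with separate bounds. With separate bounds, 7 of 14 other OFF cone bipolar genes were lower and 0 higher, with a summed level of 166 FPKM in the KO library, against 199 FPKM in the control one. Among 8 other ON cone bipolar genes 1 was lower and 0 higher, with a summed level of 477 FPKM in the KO library, against 444 FPKM in the control one. Most of that sum was Gng13, at 322 FPKM in the KO library, against 285 FPKM in the control one, with overlapping bounds. Of 7 measured amacrine genes 1 was lower and 0 higher, and of 8 ganglion cell genes 6 were higher and 0 lower. Of 5 horizontal cell genes 2 were higher and 0 lower, of 6 rod genes 4 were higher and 1 lower, and of 6 cone genes 2 were higher and 2 lower. Among 6 rod bipolar genes 1 was higher and 0 lower, and among 6 Mueller glia genes 2 were higher and 0 lower. All 5 blood genes, all 6 lens, vitreous and ciliary body genes and 6 of 7 pigment epithelium genes were lower in the KO library. The part of these differences in the levels of Erbb4, Serpini1 and Sox6 was not tested.

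At P7 the genotypes differed with separate bounds at 1 member. Zfhx4 was at 10.1 FPKM (bounds 9.62 to 10.5) in KO retina, against 7.45 FPKM (7.10 to 7.79) in control retina, 135% of control (log2 difference 0.39), and with about 2242 implied fragments in the KO library, against 1886 in the control one, it was the most deeply sampled member. That is 1 of the 8 members at 1 FPKM or more, against 13.3% of 12828 genes (7.25% higher and 6.09% lower), a share near the background. Vwc2 was at 2.26 FPKM (1.88 to 2.64) in KO retina, against 1.62 FPKM (1.32 to 1.92) in control retina (0.32), with bounds that overlapped narrowly. Htr3a was at 0.490 FPKM in KO retina, against 0.255 FPKM in control retina, with overlapping bounds.

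The other members differed less at P7. Cpne9 (0.20) and Serpini1 (0.14) were nominally higher in the KO library, and Erbb4 (-0.11), Chrm2 (-0.10), Sox6 (-0.08) and Prkar2b (-0.08) nominally lower, all within their bounds. The median of all 10 was 0.07, and that of the 8 at 1 FPKM or more was 0.03, beside 0.01 for all genes at 1 FPKM or more. Genes of several other lists differed in the same P7 libraries. Over all genes at 1 FPKM or more at P7, 7.25% were higher and 6.09% lower with separate bounds. Of 14 other OFF cone bipolar genes 5 were higher and 2 lower with separate bounds, and of 5 horizontal cell genes 3 were higher and 0 lower, with a summed level of 99.6 FPKM in the KO library, against 90.3 FPKM in the control one. With separate bounds, 3 of 6 cone genes, 3 of 8 ganglion cell genes, 4 of 6 lens, vitreous and ciliary body genes, 2 of 7 pigment epithelium genes and 1 of 5 blood genes were higher and 0 of each were lower. Of 5 starburst amacrine genes 2 were higher, Megf10 among them. Lower in the KO library were 3 of 7 measured amacrine genes and 2 of 6 rod genes, with 0 higher in either list. The part of these lists in the level of Zfhx4 was not tested.

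**Figure D3:**
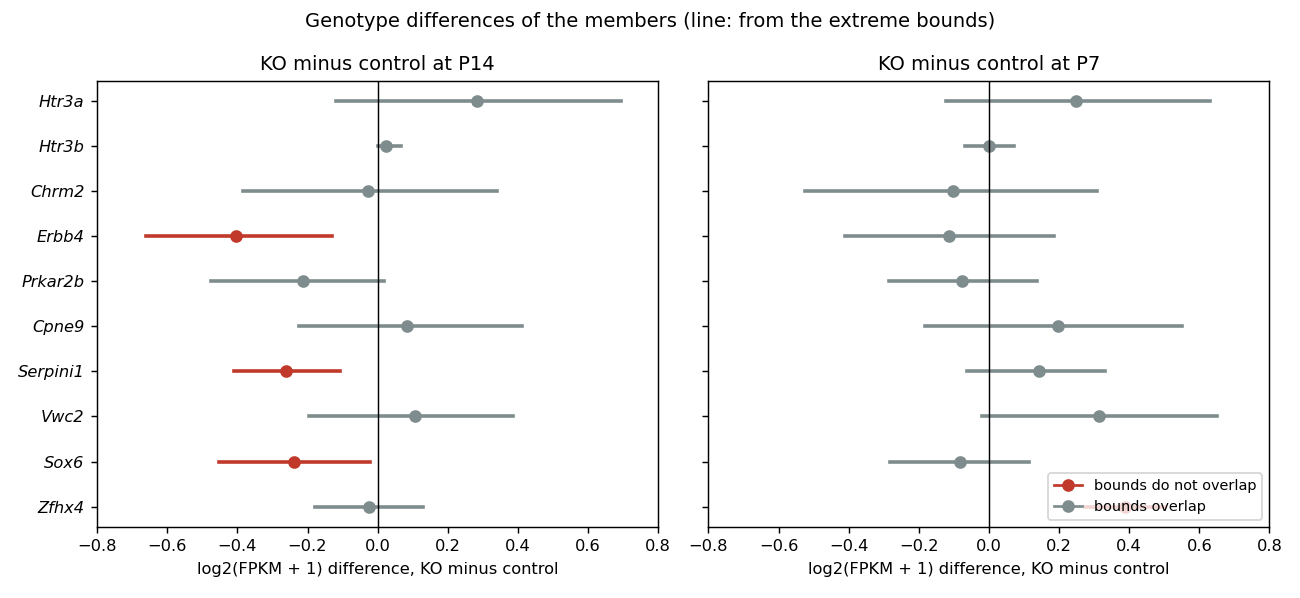
Difference of log2(FPKM + 1), KO minus control, for the 10 members at P14 (left) and P7 (right). Points are the differences between 2 libraries, and lines run between the differences of the extreme bounds; red marks members whose bounds did not overlap. Erbb4, Serpini1 and Sox6 lie below 0 at P14, and Zfhx4 lies above 0 at P7.

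With genotype and age in 1 fit, limma called 0 of the 9 members for the genotype term at an adjusted p below 0.05, where 31 of 12933 genes were called (0.24%), 0 higher and 31 lower. At an unadjusted p below 0.05 it was 1 member, Htr3a, and 1185 genes. The genotype difference of Htr3a in the fit was 0.26 ± 0.11 (log2, SE; limma adjusted p = 0.506), and it was higher in the KO library at either age. For Erbb4 it was -0.26 ± 0.12 (limma adjusted p = 0.550), lower in the KO library at either age. A difference that turns with age enters this fit as noise, and the smallest adjusted p among the members stayed at 0.459 or above in every alternative fit.

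The changes between P7 and P14 were set side by side in the genotypes, using the same 4 libraries as the genotype differences above. Serpini1 was 0.54 higher at P14 in the KO retina, with a range from the extreme bounds of 0.37 to 0.70, and 0.95 higher in the control retina, with a range of 0.75 to 1.11. Zfhx4 differed between P14 and P7 by -1.71 in the KO retina (-1.84 to -1.58) and by -1.30 in the control retina (-1.44 to -1.16). The ranges of the genotypes did not overlap for Serpini1 and Zfhx4, and they overlapped for the other 8 members. That is 2 of 10 members, both lower in the KO retina, against 4.82% of the 13454 genes at 1 FPKM or more in any library in either direction and 2.97% lower. The 10 include Htr3b, which was below 1 FPKM in every library. With 1 library a group the difference between the changes was not tested. For Htr3a the changes were nearly equal, 1.55 in KO retina, against 1.51 in control retina, as they were for Chrm2, 1.03 in KO retina, against 0.96 in control retina.

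The families of the members give the context for each. Over all genes at 1 FPKM or more, 28.7% were higher and 38.9% lower at P14 with separate bounds in KO retina. In control retina 27.3% were higher and 37.3% lower. Between the genotypes, bounds were separate for 15.6% of such genes at P14 and 13.3% at P7. The family lists also hold genes under 1 FPKM. Among 14 serotonin receptor genes, 7 were higher at P14 than at P7 with separate bounds in KO retina, against 6 in control retina, and 0 were lower in either. Htr3a had the largest difference of them in either genotype. Between the genotypes at P14, Htr2b was at 0.750 FPKM in KO retina, against 1.45 FPKM in control retina and Htr2c at 1.14 FPKM in KO retina, against 1.76 FPKM in control retina, both with separate bounds. Of 9 cholinergic genes 8 were higher at P14 in KO retina, against 7 in control retina, Chrm2 among them. Chat, the acetylcholine-synthesising enzyme of starburst amacrine cells, was at 5.49 FPKM at P14 and 1.03 FPKM at P7 in the KO retina, and at 5.50 FPKM at P14 and 1.05 FPKM at P7 in the control retina. None of the 9 differed between the genotypes with separate bounds at either age.

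Of 8 genes for ErbB receptors and their neuregulin ligands, 1 was higher and 4 were lower at P14 in each genotype. Over all genes 28.7% were higher and 38.9% lower in KO retina, against 27.3% and 37.3% in control retina. The ligand gene Nrg1 was at 2.29 FPKM at P14 and 1.07 FPKM at P7 in the KO retina, and at 2.07 FPKM at P14 and 1.02 FPKM at P7 in the control retina, while Nrg3 was at 3.91 FPKM at P14 and 7.03 FPKM at P7 in the KO retina, and at 4.02 FPKM at P14 and 6.54 FPKM at P7 in the control retina. Erbb4 was the only one of the 8 whose bounds were separate between the genotypes at P14, and none was at P7. Of 6 subunits of protein kinase A, Prkar2b was the lowest in level in all 4 libraries. Prkar1a, another regulatory subunit, was at 169 FPKM in KO retina, against 181 FPKM in control retina at P14.

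Of 9 copine genes 4 were higher and 1 lower at P14 in each genotype. Over all genes 28.7% were higher and 38.9% lower in KO retina, against 27.3% and 37.3% in control retina. Of the copines, Cpne6 differed most in the KO retina, with 18.2 FPKM at P14, against 4.26 FPKM at P7. Cpne5 was lower in the KO library at either age with separate bounds, at 5.32 FPKM in KO retina, against 6.79 FPKM in control retina at P14, and at 4.93 FPKM in KO retina, against 6.69 FPKM in control retina at P7. Plat, the tissue plasminogen activator that neuroserpin inhibits, was lower at P14 where Serpini1 was higher, at 6.70 FPKM at P14 and 9.60 FPKM at P7 in the KO retina, and at 6.61 FPKM at P14 and 9.28 FPKM at P7 in the control retina. Of 7 BMP ligand and antagonist genes, Vwc2 had the largest difference between the ages in either genotype, and by separate bounds 2 were higher and 1 was lower at P14 in KO retina, against 3 higher and 0 lower in control retina. All 3 SoxD genes were lower at P14 in the KO retina with separate bounds, and 2 of 3 in the control retina. Sox5 was at 2.84 FPKM in KO retina, against 2.12 FPKM in control retina at P7, separate bounds in the direction opposite to that of Sox6 at P14. Zfhx3, a close relative of Zfhx4, was at 1.13 FPKM at P14 and 3.44 FPKM at P7 in the KO retina, and at 1.08 FPKM at P14 and 3.42 FPKM at P7 in the control retina, and its bounds overlapped between the genotypes at either age.

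**Figure D4:**
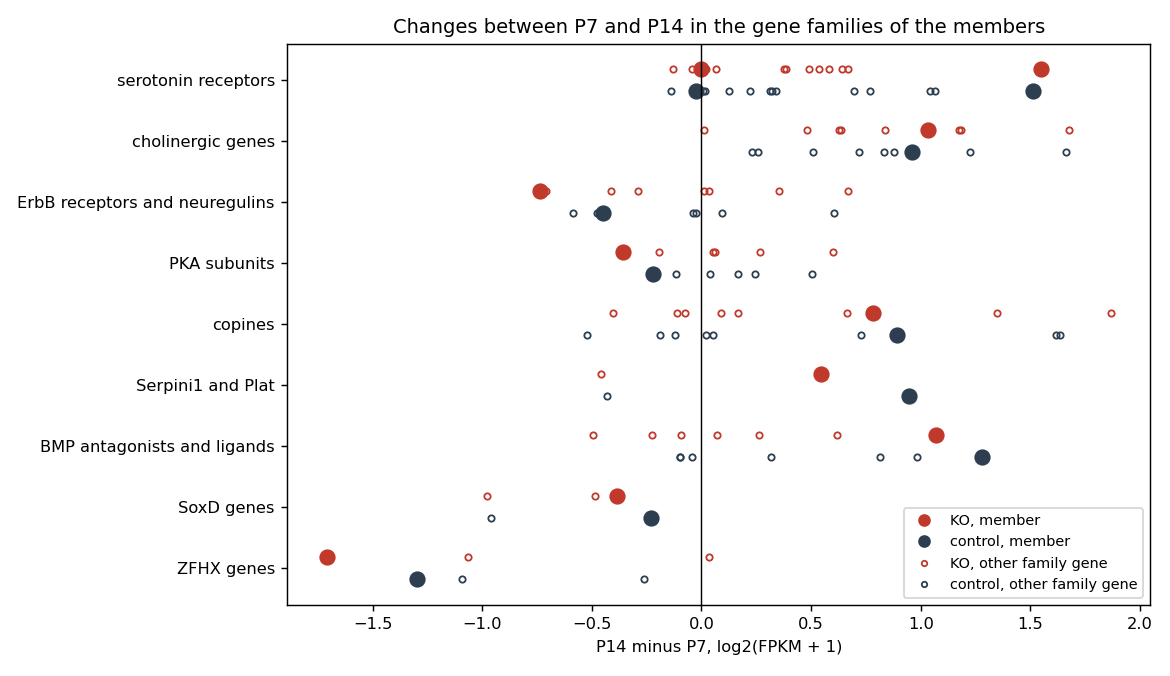
Difference of log2(FPKM + 1), P14 minus P7, for every gene of 9 families (rows), in the KO (red) and control (dark blue) retina. Large filled points are the members and small open points the other genes of the family. Most serotonin receptor and cholinergic genes lie at or above 0, with Htr3a furthest to the right in its row, and Zfhx4 lies furthest to the left of all.

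Other subtype markers differed with age in both directions as well. Among all genes at 1 FPKM or more, 28.7% stood higher and 38.9% lower at P14 with separate bounds in KO retina. In control retina 27.3% stood higher and 37.3% lower. By separate bounds, 3 of 14 other OFF cone bipolar markers stood higher at P14 and 11 stood lower in KO retina, against 3 higher and 8 lower in control retina. The other ON cone bipolar markers numbered 8, of which 5 stood higher at P14 and 1 stood lower in KO retina, against 5 higher and 3 lower in control retina. Cck, a neuropeptide gene that marks an ON subtype, was at 29.2 FPKM at P14 and 0.515 FPKM at P7 in the KO retina, and at 24.1 FPKM at P14 and 0.492 FPKM at P7 in the control retina, a larger difference than that of any of the 10 members. Col11a1, a collagen gene used to mark an OFF subtype, was like Erbb4 low at P14 and lower in the KO retina, at 0.0750 FPKM in KO retina, against 0.478 FPKM in control retina.

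The members shared few features of position. They lie on 7 chromosomes as single loci, from 11.9 kb for Htr3a to 1068.1 kb for Erbb4, which runs from 68086540 to 69154633 on chromosome 1 of mm9. Of the 6 members with loci of 100 kb or more, 2 were higher and 4 lower at P14 in the KO retina, and of the 3 shorter ones at 1 FPKM or more all 3 were higher. Among all genes with loci that long, 23.3% were higher at P14 and 50.6% lower in the KO retina, and among shorter ones 30% were higher and 37.6% lower. In the control retina 2 of the 6 long members were higher and 3 lower, and all 3 shorter ones were higher. There, 26.2% of all genes with long loci were higher and 45.5% lower, and of shorter ones 27.8% were higher and 36.6% lower. Only Chrm2 had other annotated genes overlapping its locus, 9330158H04Rik at no more than 0.213 FPKM and Mir490 listed at 0, and the part of their reads in its level was not tested.

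For the 4 members whose levels spanned 1 or more on the log2 scale, the genes nearest in pattern over the 4 libraries were found among 12668 genes by the Euclidean distance of centred log2 levels. For Htr3a these were BC029722, S100b and Nol3 (distances 0.09 to 0.11), for Vwc2 Isoc2a, Resp18 and Cxcl14 (0.03 to 0.04), and for Chrm2 Sp6, Ephx2 and Plscr1 (0.03 to 0.04). For Zfhx4 they were Klf11 (0.02), Megf10 and C2cd4b (0.07 each). Klf11 was at 1.801 FPKM in KO retina, against 1.87 FPKM in control retina at P14, and at 8.05 FPKM in KO retina, against 5.93 FPKM in control retina at P7. With 4 libraries such nearness is a description of level only.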

How the data were processed

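Per the submitters' processing notes, the authors used CASAVA 1.8.2, TopHat2 2.0.8b and Cufflinks 2.1.1 with the mm9 build, and per the file headers they deposited an FPKM per gene with its lower and upper bounds. Per the labels' protocols, total RNA was reverse-transcribed with random primers and amplified, with no strand marking named, so antisense reads cannot be told apart. Gene annotation, tool options and read counts were not given in the sources used here. Fragments were approximated from the bounds, taken as 2 standard deviations on each side, and cover counting error only. For some genes the FPKM lies outside its bounds, so bounds were compared only with bounds.

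Symbols at several loci were summed and symbols with a failed level left out. Background shares are over genes at 1 FPKM or more in either library unless stated. limma 3.58.1 (R 4.3.3) was fitted to log2(FPKM + 1) with additive genotype and age terms, a variance trend and Benjamini-Hochberg adjustment, over genes reaching 1 FPKM in 2 or more libraries, without small RNA genes and loci under 300 bases. A check on simulated data drew independent noise with the fit's own spread. It therefore cannot show whether the assumptions of the fit hold for these libraries. Members, gene lists and tests were chosen with earlier results of these data known. The text names the members, genes of the listed families and markers, and the 3 genes nearest in pattern. Alternatives changed the pseudocount, scaling, filters and variance trend. One list of genes shared by bipolar cells is not reported here.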

Additional observations from a re-analysis of the deposited data

Results flagged for a closer look

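None of the 10 members had genotype differences with separate bounds in opposite directions at the ages. Among the other listed genes 13 did, and in none was the change of direction tested. The number in brackets after each is its log2 difference between KO and control at P7 less that at P14. Bmp4 was at 0.765 FPKM in KO retina, against 1.63 FPKM in control retina at P14, and at 1.49 FPKM in KO retina, against 0.496 FPKM in control retina at P7 (1.31). Nxph1 was at 4.58 FPKM in KO retina, against 7.09 FPKM in control retina at P14, and at 11.6 FPKM in KO retina, against 7.73 FPKM in control retina at P7 (1.07). Scgn was at 47.2 FPKM in KO retina, against 58.1 FPKM in control retina at P14, and at 33.2 FPKM in KO retina, against 25.2 FPKM in control retina at P7 (0.68). Prkar1a was at 169 FPKM in KO retina, against 181 FPKM in control retina at P14, and at 163 FPKM in KO retina, against 153 FPKM in control retina at P7 (0.19).

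The others belong to lists of other cell types or tissues. From the lens, vitreous and ciliary body list, 4 genes stood below control in KO retina at P14 and above it at P7, namely Optc (5.24), Cryaa (4.66), Cryba1 (2.39) and Crygs (2.09). Optc was at 4.17 FPKM in KO retina, against 39.1 FPKM in control retina at P14, and at 19.5 FPKM in KO retina, against 3.22 FPKM in control retina at P7. The same order held for the pigment epithelium genes Dct (1.04) and Tyrp1 (1.03) and for the blood gene Hba-a2 (9.88), whose reads may be shared with a near-identical copy. The rod gene Gnat1 (-0.35) and the glial gene Glul (-0.23) were higher in the KO library at P14 and lower in it at P7.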

How the results depend on the processing

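No member with separate bounds changed direction under any setting tried. With a difference of at least 1.5-fold also required, 0 members differed between the genotypes at P14 or at P7. Erbb4 missed that fold because 1 FPKM is added to a low level, and its log2 difference at P14 became -1.06 with 0.1 FPKM added and -0.69 on a TPM scale. With the bounds rescaled to TPM, 4 members had separate bounds between the genotypes at P14, against 3 as deposited. Between the ages in the control retina it was 9 members on the TPM scale and 7 by the median ratio, against 8 as deposited. The median change with age in the KO retina became 0.66 for members averaging at least 1 FPKM and 0.094 for those averaging at least 5 FPKM, and that in the control retina 0.92 at the 1 FPKM mark. With a filter of 5 FPKM limma tested and called 5 members for the age term. Scaling by the median ratio moved the median of all fitted genes for age to 0.02, against -0.08, and ended the calls of Sox6 and Prkar2b, and fitting all genes above 0 ended that of Sox6. No paired analysis was possible because each group has 1 library, and for the same reason no library could be left out. Depth limits Htr3b, and Htr3a at P7.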
